A study of Saccharomyces cerevisiae with 2 samples.

Results

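The 10 genes described here encode the factors that load the initiator tRNA onto budding yeast ribosomes and the kinase that regulates this step. They were chosen by name: 3 subunits of eIF2 (SUI2, SUI3, GCD11), 5 subunits of eIF2B (GCN3, GCD7, GCD2, GCD1, GCD6), eIF5 (TIF5) and the kinase GCN2. All 10 are among the 4579 genes of the table, and the rule that chose them uses no measured value, though earlier results of these data were known. The RPF library holds ribosome footprints, fragments of mRNA that a ribosome shields from nuclease, and the total RNA library holds alkali-fragmented RNA. Both came from Saccharomyces cerevisiae strain yJC2229, grown at 24 °C to mid-log phase in rich medium with 2% glucose and amino acids and not treated before lysis. The labels give no genotype beyond the strain name. Cycloheximide, which arrests elongating ribosomes, was in the lysis buffer, and footprints were taken from the 80S fraction.

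eIF2 binds GTP and the methionyl initiator tRNA and brings the tRNA to the small ribosomal subunit. eIF5 stimulates hydrolysis of that GTP once the start codon is found, and eIF2B exchanges the resulting GDP for new GTP. When amino acids run short, GCN2 phosphorylates the alpha subunit of eIF2, phosphorylated eIF2 inhibits eIF2B, and translation of the transcription factor GCN4 increases while general initiation declines.

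The RPF library held 3756929 footprints in the 4579 genes. The authors' abundance column corresponds to 21353772 reads in the same genes, but its header names no library, so it stands for total RNA only if it was made from that library. Its header reads FPKM, yet every value is a whole multiple of the same step whatever the gene's length, so it was taken as not divided by length and was divided by codons here. There was 1 library of each kind, so nothing here can be checked against replicates and p-values are not given. Intervals are at 95% and cover counting error only. PCR copies of a fragment could not be recognised, so the intervals may be too narrow even for that error. In a bulk culture, less RNA per cell and fewer cells holding that RNA cannot be told apart. The coding length of each of the 10 genes in the table equals its length in the RefSeq gene table of assembly R64 (sacCer3), and 0 annotated genes overlap any of them.

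Footprint density, the number of footprints per codon of the reading frame, placed eIF2 and eIF5 far above eIF2B, and GCN2 far below all of these. The mean over subunits was 4.21 footprints per codon for eIF2 and 0.719 for eIF2B, a 5.86-fold difference, while TIF5 had 3.39 and GCN2 0.0307. Read density followed the same order, with 24.6 reads per codon for eIF2, 7.51 for eIF2B, 17.9 for TIF5 and 2.52 for GCN2. The fold of eIF2 over eIF2B was smaller in reads, at 3.28, while that of eIF2 over eIF5 was 1.37 in reads and 1.24 in footprints. The median over all 4579 genes was 0.399 footprints per codon and 3.36 reads per codon. Together the 10 genes took 0.200% of all footprints and 0.274% of all reads.

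**Figure D1:**
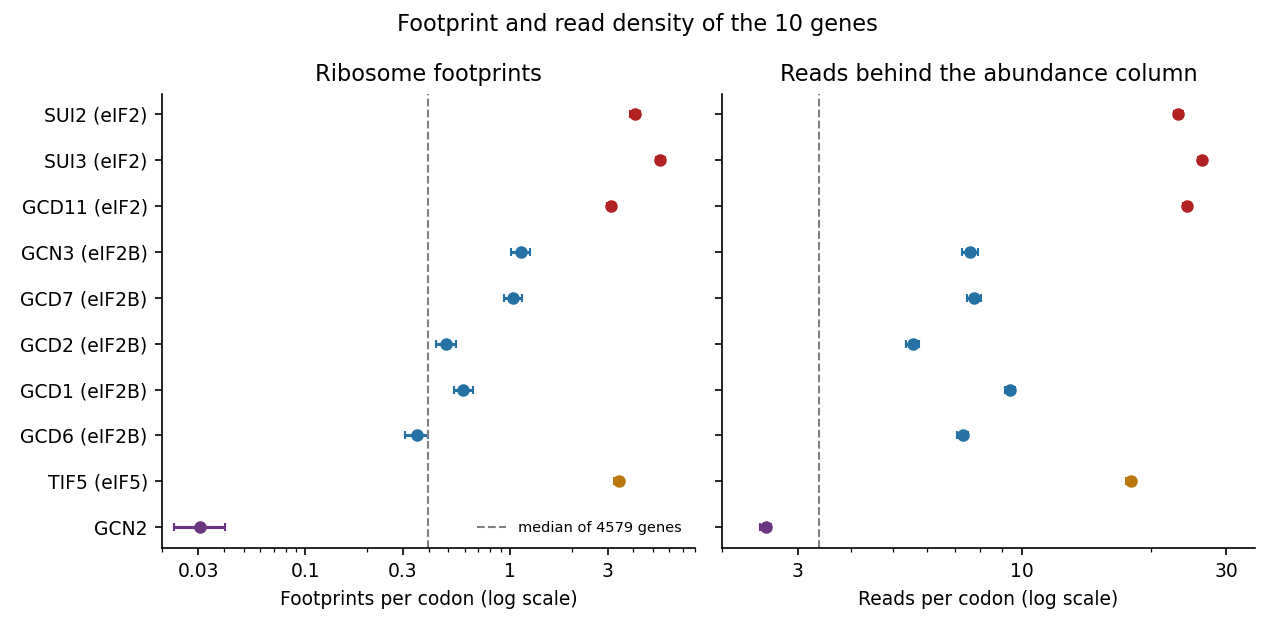
Footprints per codon (left, log axis) and reads per codon (right, log axis) of the 10 genes. Points are the single values, bars are exact Poisson 95% intervals, colours mark the complex and the dashed line is the median of 4579 genes. The eIF2 genes and TIF5 lie farthest right in both panels, and GCN2 lies left of the median in both.

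The 3 subunits of eIF2, which form the factor in equal numbers, had closely similar read densities and less similar footprint densities. SUI2 (YJR007W, chromosome X, 451020 to 451934, 305 codons) encodes the alpha subunit, the target of GCN2. It had 1246 footprints and 7075 reads, or 4.09 footprints per codon (3.86 to 4.32) and 23.2 reads per codon (22.7 to 23.7). SUI3 (YPL237W, chromosome XVI, 100496 to 101353, 286 codons) encodes the beta subunit, whose lysine-rich stretches bind eIF5 and the epsilon subunit of eIF2B. It had 1555 footprints and 7546 reads, or 5.44 footprints per codon (5.17 to 5.71) and 26.4 reads per codon (25.8 to 27.0), the highest of the 10 genes on both scales. GCD11 (YER025W, chromosome V, 205251 to 206834, 528 codons) encodes the gamma subunit, which holds the guanine nucleotide and the initiator tRNA. Its 1646 footprints and 12807 reads gave 3.12 footprints per codon (2.97 to 3.27) and 24.3 reads per codon (23.8 to 24.7). SUI3 thus exceeded GCD11 by 1.74-fold in footprints per codon (1.63 to 1.87) but by 1.09-fold in reads per codon (1.06 to 1.12). GCD11 is the longer gene, and over all 4579 genes footprints per codon declined with length (Spearman's rho -0.617). The fold between the highest and lowest eIF2 subunit in read density, SUI3 over SUI2, was 1.14 (1.10 to 1.18).

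Among the 5 subunits of eIF2B the footprint density declined in the order of coding length, without exception, whereas the read density did not. GCN3 (YKR026C, chromosome XI, 488738 to 489655, 306 codons) is the alpha subunit, dispensable for growth but needed for the response to phosphorylated eIF2. It had 346 footprints and 2319 reads, or 1.13 footprints per codon (1.01 to 1.26) and 7.58 reads per codon (7.27 to 7.89). GCD7 (YLR291C, chromosome XII, 718317 to 719462, 382 codons), the beta subunit, belongs with GCN3 and GCD2 to the regulatory part of the complex. Its 395 footprints and 2958 reads gave 1.03 footprints per codon (0.935 to 1.14) and 7.74 reads per codon (7.47 to 8.03). GCN3 and GCD7 could not be told apart by counting: the fold was 1.09 in footprints per codon (0.944 to 1.27) and 0.979 in reads per codon (0.927 to 1.03).

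The 3 longer eIF2B genes had lower footprint densities. GCD1 (YOR260W, chromosome XV, 813984 to 815720, 579 codons), the gamma subunit, pairs with GCD6 in the catalytic part. It had 343 footprints and 5443 reads, or 0.592 footprints per codon (0.531 to 0.659), and its 9.40 reads per codon (9.15 to 9.65) were the most of any eIF2B gene. GCD2 (YGR083C, chromosome VII, 644860 to 646815, 652 codons), the delta subunit, had 318 footprints and 3625 reads, or 0.488 footprints per codon (0.436 to 0.544) and 5.56 reads per codon (5.38 to 5.74), the fewest reads per codon of the complex. GCD6 (YDR211W, chromosome IV, 884727 to 886865, 713 codons) encodes the epsilon subunit that carries the exchange activity. Its 250 footprints and 5189 reads gave 0.351 footprints per codon (0.309 to 0.397) and 7.28 reads per codon (7.08 to 7.48). GCN3 over GCD6 was 3.22-fold in footprints per codon (2.73 to 3.81) and 1.04-fold in reads per codon (0.991 to 1.09), so the shortest and the longest subunit differed beyond counting error in footprints only. If the abundance values had already been divided by length, the fold in read density would be 0.447 for GCN3 over GCD6, 0.589 for SUI3 over GCD11 and 1.80 for SUI3 over GCN2. GCD1 over GCD2, the extremes in reads, was 1.69-fold in reads per codon (1.62 to 1.76) and 1.21-fold in footprints per codon (1.04 to 1.42).

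TIF5 (YPR041W, chromosome XVI, 648704 to 649921, 406 codons) encodes eIF5, the GTPase-activating protein of eIF2. It had 1377 footprints and 7287 reads, or 3.39 footprints per codon (3.21 to 3.58) and 17.9 reads per codon (17.5 to 18.4). This placed it between SUI2 and GCD11 in footprints per codon, 1.09-fold above GCD11 (1.01 to 1.17), and below every eIF2 subunit in reads per codon. GCN2 (YDR283C, chromosome IV, 1025070 to 1030049, 1660 codons) had 51 footprints and 4189 reads, or 0.0307 footprints per codon (0.0229 to 0.0404) and 2.52 reads per codon (2.45 to 2.60). The table lists no gene with under 25 footprints, and among its 4579 genes the footprint density of GCN2 ranked 4515 and its read density 2813. By comparison SUI3 ranked 400 in footprints and 392 in reads per codon, and GCD6, the lowest of the other members in footprints, ranked 2428 and 1197.

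Ordered by footprints per codon, the genes ran SUI3, SUI2, TIF5, GCD11, GCN3, GCD7, GCD1, GCD2, GCD6 and GCN2. Among neighbours in this order the interval of the fold included 1 for GCN3 and GCD7 only. SUI3 over GCN2, the ends of the order, was 177-fold in footprints per codon (134 to 239) and 10.5-fold in reads per codon (10.1 to 10.9). SUI2 and GCN3 allow a comparison at equal length, with 305 and 306 codons. SUI2 was 3.61-fold higher in footprints per codon (3.20 to 4.08) and 3.06-fold higher in reads per codon (2.92 to 3.21). For genes of 528 and 579 codons, GCD11 over GCD1 was 5.26-fold in footprints per codon (4.68 to 5.93) and 2.58-fold in reads per codon (2.50 to 2.66).

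To set footprints against mRNA, the share of all footprints that a gene took was divided by its share of all reads. The ratio equals translational efficiency only if the abundance column came from the total RNA library. It was 1.00 for SUI2 (0.942 to 1.06), 1.17 for SUI3 (1.11 to 1.24), 0.731 for GCD11 (0.694 to 0.769) and 1.07 for TIF5 (1.01 to 1.14). In eIF2B it was 0.848 for GCN3 (0.755 to 0.950), 0.759 for GCD7 (0.682 to 0.843), 0.499 for GCD2 (0.443 to 0.559), 0.358 for GCD1 (0.320 to 0.400) and 0.274 for GCD6 (0.240 to 0.311). GCN2 had a ratio of 0.0692 (0.0514 to 0.0912). The eIF2 and eIF5 genes therefore lay within a 1.60-fold span of each other, while the ratio of GCD6 was 3.10 times smaller than that of GCN3 in the same complex.

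On the log2 scale, 4 of the 10 genes had a ratio of -1 or lower, namely GCD2 (-1.0), GCD1 (-1.48), GCD6 (-1.87) and GCN2 (-3.85), and 0 had a ratio of 1 or higher. If the abundance values had already been divided by length, SUI3 would lie at 1.30. Among 2939 genes that reached a minimum of 100 footprints and 100 reads, 21.1% lay at -1 or lower and 12.5% at 1 or higher. GCN2, with 51 footprints, is not among these 2939, so 3 of the 9 members that reached the minimum are to be read against 21.1%. The interval of GCD2 (-1.17 to -0.84) spans the threshold. The median log2 ratio was -0.43 over all 10 members, -0.40 over the 9, and -0.14 over the 2939 genes.

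The ratio went with coding length among these genes as it did among all genes. Spearman's rho of log2 ratio and codons was -0.915 over the 10 members and -0.853 over the 2939 genes, given as descriptions across genes that share both libraries. For footprints per codon and length it was -0.903 over the members, and for reads per codon -0.733. GCN2 is the longest of the 10 genes and the one with the lowest ratio.

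**Figure D2:**
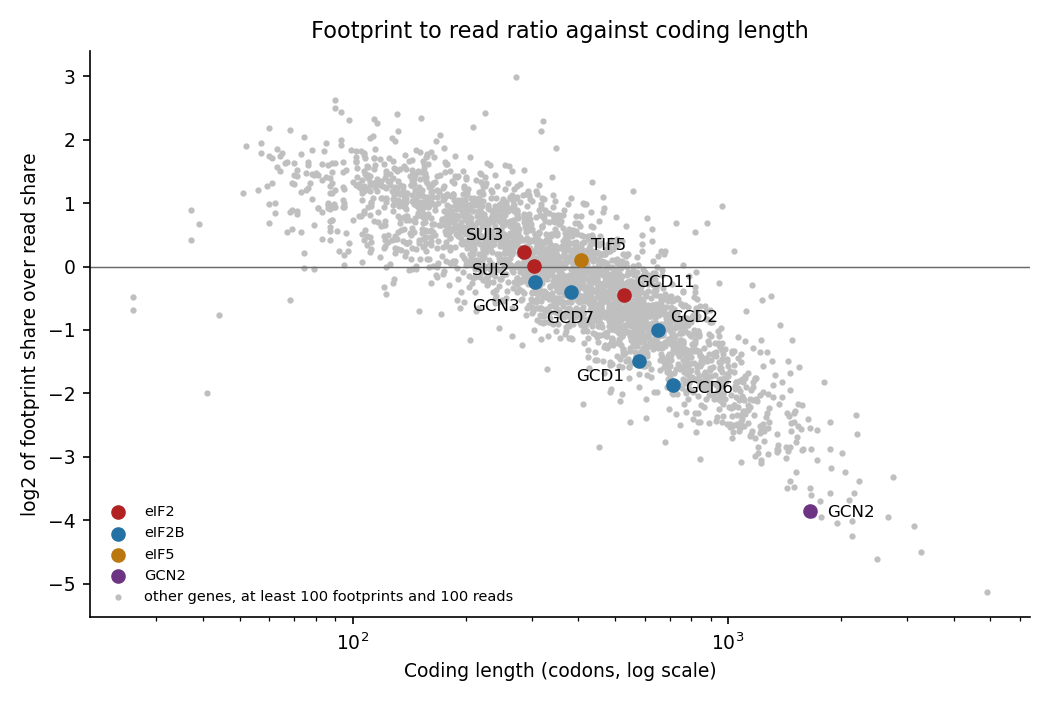
Log2 of footprint share over read share against coding length in codons (log axis). Grey points are genes with at least 100 footprints and 100 reads, and coloured points are the 10 named genes. They follow the slope of the grey points, from SUI3 at 0.23 to GCN2 at -3.85.

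Each gene was then placed beside the genes within 20% of its own length. The eIF2 subunits sat near the median of such genes: SUI2 differed from it by -0.15, SUI3 by 0.0086 and GCD11 by 0.13 on the log2 scale. TIF5 was 0.30 above, with 490 of 685 genes of like length below it. All 5 eIF2B subunits were below, by -0.39 for GCN3, -0.28 for GCD7, -0.11 for GCD2, -0.78 for GCD1 and -0.84 for GCD6. The interval of GCD2 included the median. That of SUI2 (-0.087 to 0.089) lay below its median of 0.155, so SUI2 stood farther below than GCD2. In all, 7 of the 10 members lay below the median of like length, among them GCN2, which is not one of the 2939 genes. Of the 9 members that are, 3 lay above it, while 52.5% of the 2939 genes lay below it. With no minimum, 6 of the 10 members lay below.

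GCD1 and GCD6, the catalytic pair of eIF2B, stood lowest among the 9 genes with enough footprints. Of 623 genes as long as GCD1, 43 (6.90%) had a lower ratio, and of 482 as long as GCD6, 35 (7.26%) did. The regulatory subunits GCN3, GCD7 and GCD2 had 21.4%, 29.2% and 41.0% of genes of like length below them. The footprint density of GCD6 was 0.989 times the median of its length class and its read density 1.71 times, and for GCD1 these folds were 1.20 and 1.99. For SUI3 both folds were alike, at 5.48 in footprints and 5.31 in reads. GCD11 had 5.40 and 4.83, and SUI2 had 4.34 and 4.65. A difference of 1 or more below the median was found in 0 of the 9 members with enough footprints, and in 3.13% of the 2939 genes. A difference of 1 or more above it was found in 0 members and in 2.59% of the genes. Without the minimum, where genes with few footprints join the comparison, GCD2 lay 0.12 above the median of like length and the other 4 eIF2B subunits below it, from -0.09 to -0.59.

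GCN2 stood -1.19 from the median of the 54 genes of like length that had at least 100 footprints and 100 reads. That set leaves out genes as thinly covered as GCN2 itself. Among all 120 genes of like length in the table, each with 25 footprints or more, it stood -0.78 from the median, with 13 of them lower, so it was not past 1. Its footprint density was 0.525 times the median of those 120 genes and its read density 0.842 times. The median log2 ratio of those 120 genes was itself -3.07, and 706 other genes in the table had as few footprints or fewer.

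**Figure D3:**
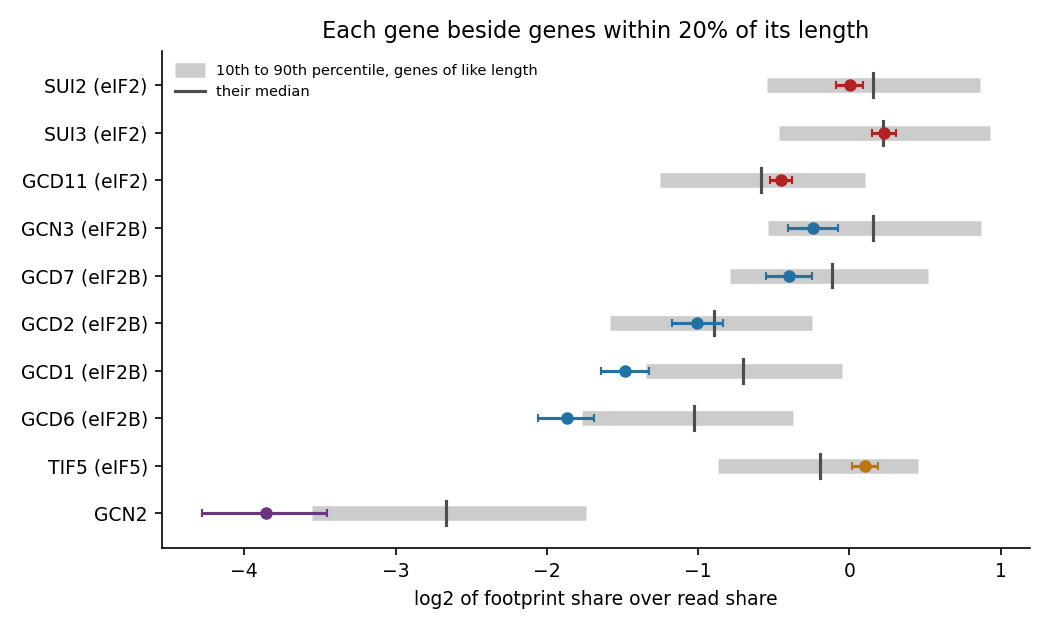
Log2 ratio of each gene (point, with its exact binomial 95% interval) beside genes within 20% of its length that have at least 100 footprints and 100 reads (grey bar, 10th to 90th percentile; dark tick, median). The eIF2 genes and TIF5 lie well inside the grey bars, and GCD1, GCD6 and GCN2 lie at or beyond their lower ends.

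Codon usage set eIF2 and eIF5 apart from eIF2B and GCN2, as density did, but ordered the genes otherwise within the lower group. Codons on a list of 23 that highly expressed yeast genes prefer made up 62.8% of sense codons in SUI2, 59.6% in SUI3, 63.6% in GCD11 and 60.7% in TIF5. The 5 eIF2B genes had 43.0% to 50.1%, GCN3 being lowest and GCD6 highest, and GCN2 had 42.0%, close to GCN3. The ranges of eIF2 and eIF2B did not overlap. The median of all genes was 45.3% and the 90th percentile 62.4%, so SUI2 and GCD11 lay above the 90th percentile, SUI3 and TIF5 below it, and eIF2B nearer the median. Over all 4579 genes this share had a rho of 0.676 with reads per codon. Codons ending in G or C made up 30.9% to 37.2% in all 10 genes, with no such separation.

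**Figure D4:**
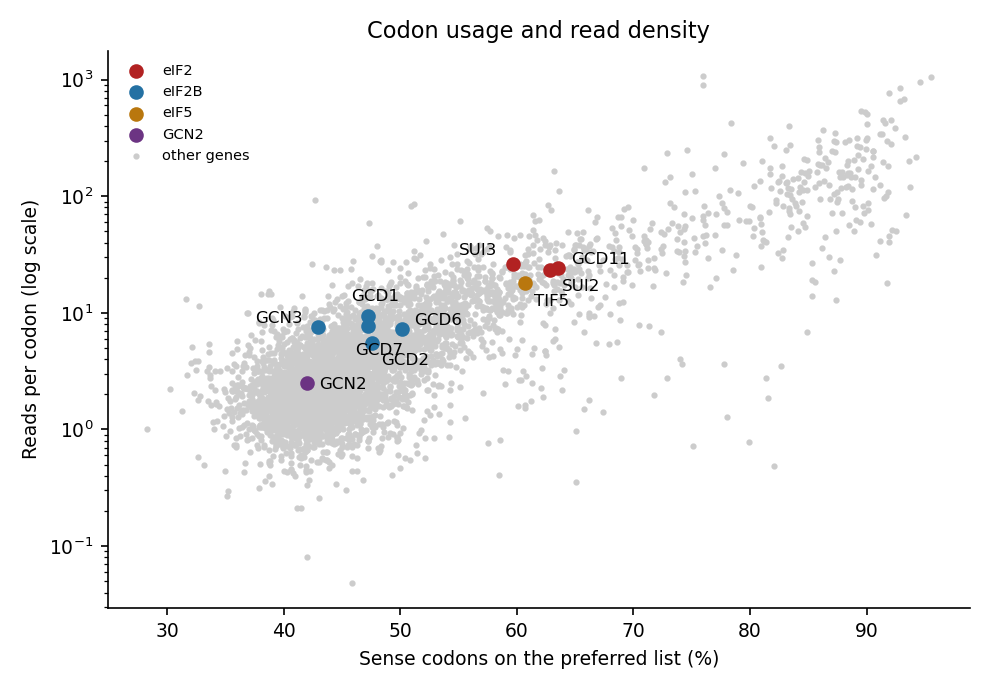
Percentage of sense codons on the preferred list against reads per codon (log axis) for the 10 genes (coloured) and the other genes of the table (grey). The eIF2 genes and TIF5 form a group near 60% and at 17.9 to 26.4 reads per codon, apart from eIF2B and GCN2 at 50.1% and lower.

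Amino acid composition, read from the codon occurrences, also set the members apart. Lysine made up 14.0% of SUI3, rank 131 of 4579 genes, where the median was 7.44%. It made up 9.54% of SUI2, 9.68% of GCD2 and 9.14% of TIF5, and 4.92% of GCN3, the lowest of the 10. Aspartate and glutamate together made up 18.8% of SUI2, 18.3% of TIF5 and 17.1% of GCD6, against 10.1% of GCD2 and 11.0% of GCD7. GCD2 was the richest in serine, with 10.9%.

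The 40 lysine codons of SUI3 held 262 footprints, 16.8% of its total and 1.20 times the mean codon of the gene (1.06 to 1.36). In GCD11 the lysine codons stood at 1.5 times the gene mean (1.29 to 1.72) and in SUI2 at 1.33 (1.13 to 1.56). The eIF2B genes differed among themselves. GCD1 stood at 1.47 (1.01 to 2.06), GCD7 at 1.14 (0.747 to 1.67), GCD6 at 0.951 and GCD2 at 0.846. In GCN3 15 lysine codons held 9 footprints, or 0.531 times the mean (0.243 to 1.01). TIF5 stood at 1.13 (0.953 to 1.33). Over the 9 members with at least 100 footprints the value was 1.14, beside 0.887 over the other genes that reached the minimum. Positions within the genes are not analysed here, so lysine-rich stretches could not be separated from single lysines.

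A codon was counted as high in a gene when it held at least 10 footprints and at least 3 times the footprints per occurrence of the mean codon of that gene. The members had 24 such pairs of gene and sense codon among 568. In the 9 genes that reached the minimum this was 4.73% of 507 pairs, and in all 2939 genes it was 3.82%. GCD7 had 6 high codons, GCD11 had 4, and GCN3, GCD2 and GCD1 had 3 each. SUI3 had 2, SUI2, GCD6 and TIF5 had 1 each, and GCN2 had 0, since none of its codons reached 10 footprints.

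The rare proline codon CCG was high in 4 members, more than any other codon. These are 4 of the 8 members with at least 100 footprints that hold it, and among all 1989 such genes that hold it, it was high in 28.2%. In GCD7 its 4 occurrences held 46 footprints, which is 11.6% of all footprints of the gene and 11.1 times the gene mean (8.14 to 14.8). In GCD2 its 2 occurrences held 13 footprints, or 13.3 times the mean (7.10 to 22.8), and in GCN3 its 2 occurrences held 19, or 8.40 times (5.06 to 13.1). The single CCG of SUI3 held 30 footprints, or 5.52 times the mean (3.72 to 7.88), and that of SUI2 held 10, or 2.45 times (1.17 to 4.50). The 4 genes with a high CCG are the 3 regulatory subunits of eIF2B and SUI3, since SUI2 lay under 3 times the mean. An even spread would put 0.592 footprints on the single CCG of GCD1 and 0.351 on that of GCD6. Neither codon could hold 10 footprints near 3 times the mean. The call therefore cannot separate the catalytic subunits from the regulatory ones.

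The codon was not high wherever it occurred. The single CCG of GCD11 held 2 footprints (0.642 times the mean, 0.0777 to 2.32), that of GCD6 held 1 (2.85 times, 0.0722 to 15.9) and that of GCD1 held 0, where up to 6.23 times the mean would be allowed. GCN2 has 7 of them with 0 footprints, where a value of up to 17.2 times its low mean would still be allowed by counting, and TIF5 has none. Over the 20 occurrences in all members CCG stood at 4.97 times the gene mean (3.95 to 10.4), and over the 9 members with at least 100 footprints, without GCN2, at 7.65 (6.07 to 9.68). The other genes that reached the minimum gave 4.80, inside the first of these intervals and below the second. In the 4 members with at least 1000 footprints it stood at 2.87.

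The other proline codons were lower than CCG over the 9 members with at least 100 footprints. There they stood at 1.33 (CCA), 1.69 (CCC) and 2.00 (CCT) times the gene mean. This order did not hold in every gene, since in GCD11, GCD1 and GCD6 other proline codons stood above CCG. CCT was above the gene mean by more than its interval in SUI3 (2.48, 1.97 to 3.09), GCD11 (2.29, 1.73 to 2.96), TIF5 (2.11, 1.53 to 2.85) and GCD2 (3.33, 1.77 to 5.70). CCA, the preferred proline codon, was highest in GCD6, at 3.71 times the mean (1.97 to 6.34) with 13 footprints on 10 occurrences. It was the only codon of GCD6 with both 10 footprints and 3 times the mean. Higher there but under 10 footprints were the alanine codon GCG, at 17.1 (6.28 to 37.2) on 6, and CCC, at 5.70 on 4. In TIF5 CCA stood at 0.565 (0.358 to 0.848). CCC had 44 footprints on 7 occurrences in GCD11, or 2.02 times the mean (1.47 to 2.71).

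Outside proline, the arginine codon AGG stood highest in 3 members among codons with at least 10 footprints. A single AGG in SUI3 held 50 footprints, 9.20 times the gene mean (6.83 to 12.1), a single one in TIF5 held 18, or 5.31 times (3.15 to 8.39), and 2 in GCN3 held 21, or 9.29 times (5.75 to 14.2). In SUI2 the single AGG stood at 0.979 (0.267 to 2.51). AGG stood at 1.35 in GCD11 and in GCD1, at 1.43 in GCD6 and at 0 in GCD7, GCD2 and GCN2. Over the 9 members with at least 100 footprints AGG stood at 2.44 (1.83 to 3.30), beside 1.54 over the other genes tested. Among codons with at least 10 footprints, the tryptophan codon TGG led GCD1 at 7.31 times the mean (3.89 to 12.5), with 13 footprints on 3 occurrences. By the same minimum GCD11 was led by the isoleucine codon ATA at 4.81 (3.25 to 6.87) and SUI2 by the glutamine codon CAG at 3.43 (2.28 to 4.95).

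How evenly footprints covered the codons differed between the genes. TIF5 had footprints on all 56 codons it contains, and SUI2, SUI3 and GCD11 lacked them on 3, 3 and 4 codons. The eIF2B genes lacked them on 7 (GCD1) to 15 (GCD7) codons. GCN2 had footprints on 16 of its 62 codons, while the same 51 footprints spread in proportion to codon occurrences would have reached 30.2 on average. The codons with the most footprints were GAC (8), ATG (6), CTT (5) and TAT (5), and its 50 AAG codons held 0. GCN3 reached 47 codons where an even spread would give 55.3, and GCD7 reached 44 against 55.2. GCD2 reached 48 against 54.3, GCD1 52 against 54.9 and GCD6 51 against 51.5, so GCD6 was close to an even spread. SUI2, SUI3 and GCD11 reached 49, 51 and 52 against 51.8, 53.9 and 55.7, and TIF5 reached 56 against 55.7.

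At the stop codon, the last position of the frame, footprints also differed within the complexes. Over the other genes that reached the minimum, TAA stood at 4.10, TAG at 4.79 and TGA at 4.97 times the gene mean. SUI2 had 44 footprints on its TAA, 10.8 times its gene mean (7.83 to 14.5). On the same codon GCN3 had 10 (8.84 times, 4.24 to 16.3) and GCD6 had 4 (11.4 times, 3.11 to 29.2). TIF5 had 7 on its TAG, or 2.06 times the mean. SUI3 had 3 and GCD7 had 1 on TGA, at 0.552 and 0.967 times the mean. GCD11, GCD2, GCD1 and GCN2 had 0. Among genes with a gene mean within 20% of the member's, the share with no footprint there was 14.9% for GCD11, 49.7% for GCD2, 46.8% for GCD1 and 84.3% for GCN2, so a 0 was common at the density of the last 3. For SUI2 the median of 169 such genes was 9 footprints, for GCN3 that of 342 was 2 and for GCD6 that of 457 was 0. For SUI3 the median of 130 was 9 and for GCD7 that of 346 was 2, both above the member's own count. For TIF5 that of 193 was 6.

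The genes nearest to each group in footprints and reads per codon together were named by the distance on log2 scales over these 2 values. For the eIF2 mean these were SIM1, a cell wall protein, IDH2, a subunit of isocitrate dehydrogenase, and WTM1, at distances of 0.0925, 0.0929 and 0.10. For eIF2B they were NOC2, a 60S subunit assembly factor, PPT1, a protein phosphatase, and IST2. For TIF5 they were PRE2, a proteasome subunit, TYS1, the tyrosyl-tRNA synthetase, and THR1, homoserine kinase, at 0.0168, 0.0246 and 0.0600. GCN2 had no close match among genes with at least 100 footprints. NUM1 (2749 codons), VPS13 and REA1 came nearest, at 0.641, 0.867 and 1.02, and all are longer than GCN2.

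Partner factors of the pathway were taken from fixed lists. Of 10 initiation factors that work with eIF2, 5 had a log2 ratio of -1 or lower and 0 had 1 or higher, with a median of -0.54, beside the 21.1% and 12.5% of all genes tested. The 5 low ones have 609 to 1003 codons. They ranged from TIF35, a subunit of eIF3, at 0.87 to FUN12 (eIF5B), the GTPase of subunit joining, at -1.72. Relative to genes of like length, 5 of the 10 lay above the median, beside 1395 of all 2939 genes tested. Of the eIF2 assembly and initiator tRNA list, 6 of 8 genes reached the minimum. TMA22 was the highest of the list at 1.05 and the methionyl-tRNA synthetase MES1 the lowest at -1.61. CDC123, the assembly factor of eIF2, had 84 footprints and 300 reads (ratio 1.59, 1.23 to 2.03) and RIT1 had 49 footprints, both under the minimum.

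The eIF2B subunits lay below the median of genes of their own length, GCD2 with an interval that included it. All 4 regulators of GCN2 lay below theirs too, as did 52.5% of the 2939 genes. The differences were -0.39 for GCN1, the large activator that contacts the ribosome, -0.80 for its partner GCN20, -0.61 for YIH1, an inhibitor that competes for GCN1, and -0.39 for GIR2, none of them past 1. GIR2 had the highest log2 ratio of the list at -0.06 and GCN1 (2673 codons) the lowest at -3.95. GCN1 had 15.0 reads per codon, against 2.52 for GCN2, and 0.171 footprints per codon, against 0.0307.

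Among GCN4 and the 14 amino acid genes listed as its targets, 10 of 15 lay above the median of their length. Among all genes tested, 1395 of 2939 did. In the list 1 gene lay below the median by 1 or more, beside 3.13% of all genes tested. That gene was GCN4 itself, at -1.46. Translation of GCN4 is known to be held down by upstream reading frames when eIF2 is not phosphorylated. Whether this underlies the value here was not tested. GCN4 had 1291 footprints and 17247 reads on 282 codons, nearly the length of SUI3, and a log2 ratio of -1.23 against 0.23 for SUI3. In reads per codon GCN4 stood at 61.2 and SUI3 at 26.4, and in footprints per codon at 4.58 and 5.44. Of the 15 genes, 5 had a log2 ratio of -1 or lower and 1 had 1 or higher, beside the same 21.1% and 12.5%. HIS3 had the highest log2 ratio of the list at 1.20.

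**Figure D5:**
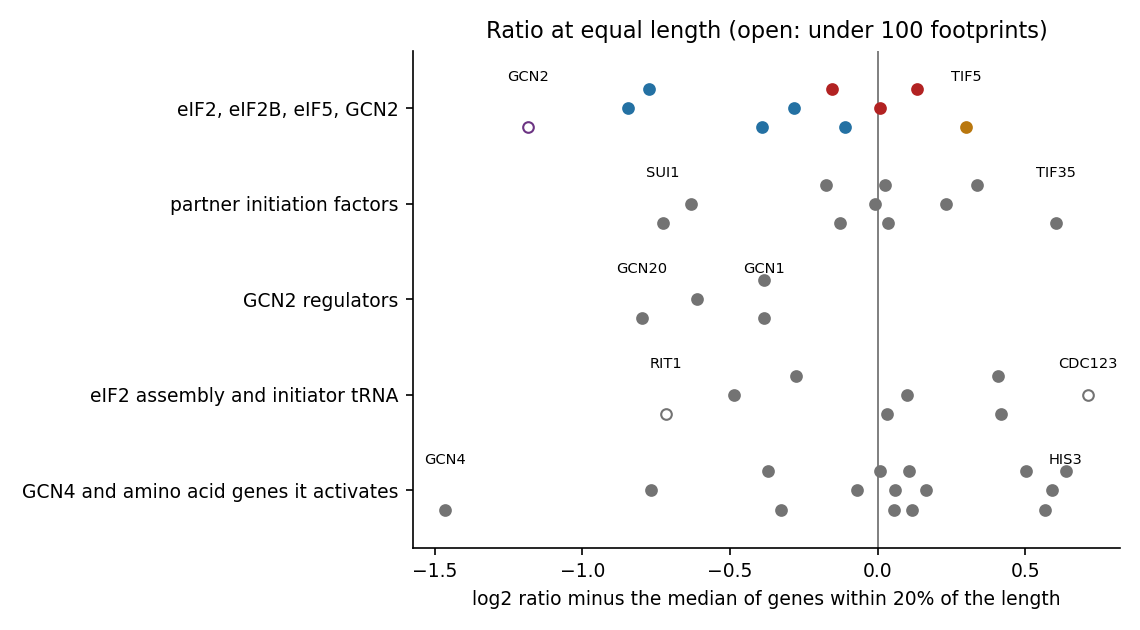
Log2 ratio minus the median of genes within 20% of the length, for the 10 genes (top, coloured by complex) and 4 lists of partner genes (grey). Open points are genes with under 100 footprints, and the highest and lowest of each row are named. The eIF2B subunits and the GCN2 regulators lie left of 0, and GCN4 lies farthest left at -1.46. The eIF2 subunits and TIF5 lie around 0, with SUI2 (-0.15) left of it and farther left than GCD2 (-0.11).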

How the data were processed

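One table of genes by codons was used. Its deposited footprint columns are raw counts per gene and codon, summed over the occurrences of that codon, per the file headers. A further 64 columns, whose headers can be read as total RNA, hold codon occurrences, since 4575 genes have 1 stop codon in them. Although headed FPKM, the deposited abundance values behave as CPM that the authors did not divide by length: 100% are whole multiples, within 0.001 reads, of 0.0459 CPM, which gave the reads. The planned residue positions could not be run, since no sequences were used here. Per the submitters' processing notes, cutadapt, Bowtie2, HISAT2, HTSeq and the sacCer3 build were used. The sources used here do not give versions, settings, use of strand or the ribosomal site counted.

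Densities carry exact Poisson intervals, folds and ratios exact conditional binomial (Clopper-Pearson) intervals, and codon values over several genes gamma intervals (Fay and Feuer), all at 95%. Genes of like length lie within 20% in codons. Calls were a log2 ratio of 1 or more in either direction among genes with at least 100 footprints and 100 reads. The like-length computation was tested on simulated data, with Poisson counts around a smooth slope on length. Unchanged genes had no other spread there, so the simulation checks the computation and not the error of calls in real genes. Python 3.11.15, NumPy 2.4.6, pandas 2.3.3, SciPy 1.17.1 and statsmodels 0.14.6 were used.

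The 10 members and the lists were chosen with earlier results of these data known. All members are named, with the highest and lowest gene of each list (one is not reported here), the 3 genes nearest to each group, the proline codons and the leading codon of each member. GCN20, YIH1, TGG, AGG and the lysine codons in several genes, and the pairs of equal length, were chosen after their values were seen, as were CDC123, RIT1 and the codons of GCN2.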

Additional observations from a re-analysis of the deposited data

How the results depend on the processing

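With 1 library per group nothing could be left out. No paired analysis was possible because there is a single library of either kind. If the abundance values had been length-normalised as FPKM, this would set the median log2 ratio of the 10 members to -0.0061 and the reads-per-codon folds to 0.589 for SUI3 over GCD11, 0.447 for GCN3 over GCD6 and 1.80 for SUI3 over GCN2, with SUI2 over GCN3 at 3.05. It would put SUI3 at 1.30, past 1, SUI2 at 0.98, GCN3 at 0.74, GCD7 at 0.25 and GCN2 at -5.32, with 4 members at -1 or lower. Scaling by the median gene set the median to -0.29. With that scaling, without stop codons or without each gene's highest codon, 3 members lay at -1 or lower, GCD2 being the one that changed. The share of all genes at -1 or lower was 33.3% with a minimum of 30 and 34.8% with none. With a smooth trend on length (LOWESS, 30% of the genes), or with no minimum, 0 members lay 1 or more below their length, since GCN2 no longer did. All 5 eIF2B subunits stayed below with windows of 10% and 30% and with the trend, and 4 with no minimum. Footprint folds of these 4 pairs moved within their intervals without stop codons, without the highest codon and with codons capped at the 90th percentile. CCG stood at 2.87 in the 4 members with at least 1000 footprints. High pairs numbered 9 at 5 times the gene mean and 8 in those 4 members. Depth limits GCN2 most, with 51 footprints.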
